A study of Mus musculus with 18 samples.

Results

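Accessible chromatin was examined at 9 genes of the memory and stemness programme of T cells, Tcf7, Lef1, Bach2, Foxo1, Klf2, Myb, Il7r, Ccr7 and S1pr1, in mouse CD4 T cells with and without Id3. Their regions were chosen as the distinct regions of the deposited ATAC-seq table that name a member gene as overlapping it or as lying next to it. There were 112 such regions of 65983 in all, each naming only 1 of the 9 genes. ATAC-seq marks open DNA by the insertion of a transposase. The 18 samples formed 6 groups of 3, namely Id3 knockout (KO) and wild-type (WT) cells labelled Th1 at 24 h, and KO and WT cells labelled Tcmp or Teff at 72 h. All were naive CD4 T cells activated through CD3 and CD28 in medium with IL-2, IL-12 and an antibody against IL-4, a Th1-polarising culture. The labels do not spell out Tcmp and Teff, and do not say how or in which cells Id3 was deleted or whether the samples of 1 group were taken from different mice or cultures.

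Naive and memory T cells keep the capacity to renew themselves through a group of transcription factors whose levels fall as cells become effectors. TCF-1 (encoded by Tcf7) and LEF-1 bind DNA through HMG boxes and act with beta-catenin and other cofactors, BACH2 represses effector genes, and FOXO1 activates genes of quiescence and recirculation, Klf2, Il7r and Ccr7 among them. KLF2 in turn activates S1pr1, whose product lets T cells leave lymph nodes. Id3 inhibits E proteins, which bind E-box sequences, and is itself used as a marker of memory precursors.

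Only the positions, classes, widths and window numbers of regions are described here. In each of the 6 contrasts of the table, the p-value of a region's best window fell in 0 of the steps between successive regions with a region p below 1, from the first row to the last. In each contrast all 65983 representative windows were also those with the lowest running number of their region. The deposited fold changes and p-values therefore could not be read as those of the gene in their row, and no change between KO and WT, or between cell labels, is given at any of the 9 genes. The regions, their widths, window numbers and gene names were identical in the 6 contrasts. They are a single set for all 18 samples, with no value per sample and hence no replicate error, and the depth of the libraries is unknown. A region absent from the table may have been filtered out by the authors, so its absence does not show closed chromatin.

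Promoter sequences are shown for 5 members to set the base composition of their starts beside the regions that name them. Klf2, Myb, Foxo1 and Il7r have a single start in the RefSeq table and a region labelled as promoter, while Lef1 has no such region. Each line gives the 250 bases before the start, from 5' to 3' on the gene's strand, and capitals mark matches to the motifs listed further on.
Klf2: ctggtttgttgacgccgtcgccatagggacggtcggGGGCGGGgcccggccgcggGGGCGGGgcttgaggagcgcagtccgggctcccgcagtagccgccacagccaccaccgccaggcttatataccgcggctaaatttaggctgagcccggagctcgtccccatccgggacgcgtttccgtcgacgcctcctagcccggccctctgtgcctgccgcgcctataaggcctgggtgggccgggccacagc
Myb: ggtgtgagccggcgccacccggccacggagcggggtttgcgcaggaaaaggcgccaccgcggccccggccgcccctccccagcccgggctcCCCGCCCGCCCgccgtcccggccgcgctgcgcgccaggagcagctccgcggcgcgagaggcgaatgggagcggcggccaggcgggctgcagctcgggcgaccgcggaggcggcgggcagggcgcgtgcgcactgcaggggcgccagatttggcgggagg
Foxo1: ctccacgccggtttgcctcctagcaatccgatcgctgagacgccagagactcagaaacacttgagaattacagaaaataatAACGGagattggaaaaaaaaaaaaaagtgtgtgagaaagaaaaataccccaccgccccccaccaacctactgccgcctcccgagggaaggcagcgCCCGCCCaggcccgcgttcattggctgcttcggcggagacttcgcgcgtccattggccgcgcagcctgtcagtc
Il7r: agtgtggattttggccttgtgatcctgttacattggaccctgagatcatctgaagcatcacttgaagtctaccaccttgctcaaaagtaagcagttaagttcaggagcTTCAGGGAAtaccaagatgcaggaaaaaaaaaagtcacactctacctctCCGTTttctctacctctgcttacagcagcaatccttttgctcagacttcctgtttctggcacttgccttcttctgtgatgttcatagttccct
Lef1: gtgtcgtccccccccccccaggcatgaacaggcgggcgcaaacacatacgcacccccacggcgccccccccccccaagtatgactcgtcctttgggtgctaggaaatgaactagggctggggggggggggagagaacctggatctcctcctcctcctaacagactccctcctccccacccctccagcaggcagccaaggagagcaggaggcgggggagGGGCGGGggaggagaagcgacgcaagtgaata

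These sequences are from RefSeq, build GRCm38.p6, at chr8:72318812-72319061 on the plus strand for Klf2, chr10:21160985-21161234 on the minus strand for Myb, chr3:52268087-52268336 on the plus strand for Foxo1, chr15:9529877-9530126 on the minus strand for Il7r and chr3:131110047-131110296 on the plus strand for Lef1. The Lef1 line is the first of 4 listed starts. The deposited regions are in build GRCm39, so sequence and region were paired by gene name and label and not by position. The Myb sequence held 40 CpG dinucleotides and was 81.2% G and C, that of Klf2 held 29 and was 71.2%, and that of Foxo1 held 20 and was 56.0%. Il7r stood apart, with 1 CpG and 44.0% G and C, against a median of 6 CpG and 52.4% over 32851 promoters. Only 18.8% of promoters had as few CpG as Il7r, and 1.3% had as many as Myb. The 4 starts of Lef1 held 5 to 14 CpG, the pair of Tcf7 starts 37 and 15, and the Bach2 start 7. A promoter region was thus listed for genes with CpG-rich starts and for Il7r, with its CpG-poor start, alike. Whether a listed region covers the same start was not tested.

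The 9 genes differed widely in how many regions named them. Bach2 had 59, Lef1 21, Foxo1 9, Il7r 7, Tcf7 6, Ccr7 4, Klf2 3, Myb 2 and S1pr1 1. Bach2 alone held 52.7% of the 112 regions and Lef1 a further 18.8%. Over the 26755 genes named in the table the median was 2 regions, the 90th percentile 5 and the 99th percentile 17, and 37.4% of genes had a single region. Bach2 and Lef1 were thus beyond the 99th percentile, with 4 genes (0.015%, Bach2 included) reaching the count of Bach2 and 147 (0.549%) that of Lef1. Foxo1, Il7r and Tcf7 were reached by 4.27%, 7.20% and 9.74% of genes. Ccr7 was reached by 22.1%, Klf2 by 37.5% and Myb by 62.6%, and S1pr1 had the lowest count that a named gene can have. A long gene has more room for regions, and gene lengths of the build of the files were not used here, so a high count is not a density.

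**Figure D1:**
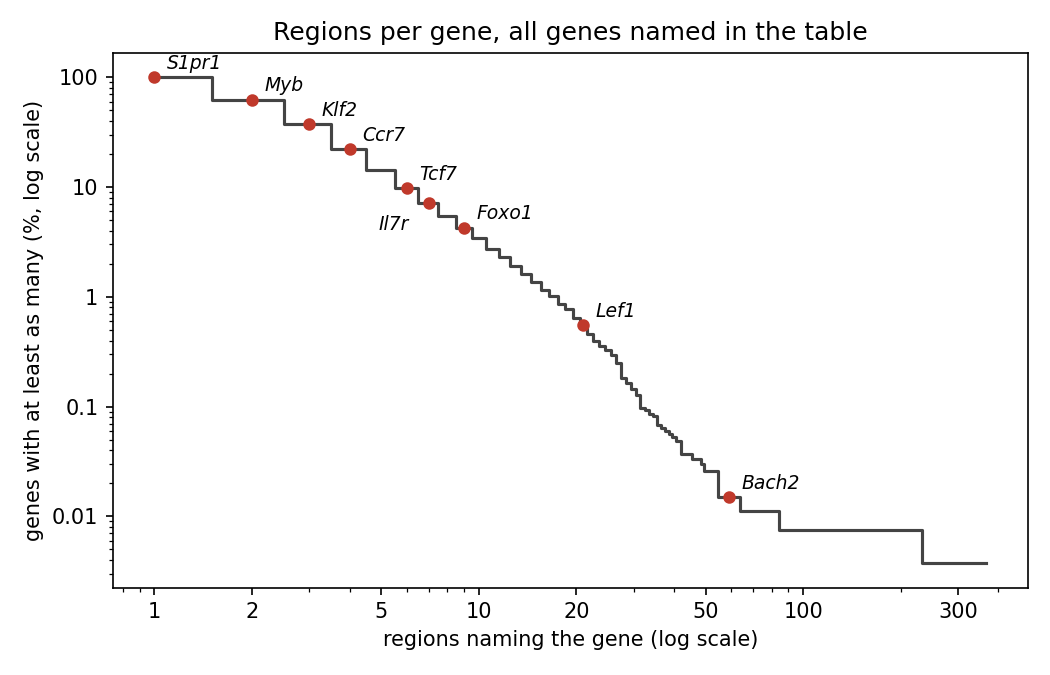
Share of all 26755 named genes (%, log scale) with at least as many regions as the number on the x axis (log scale), with the 9 members as red points. Bach2 (59 regions) and Lef1 (21) lie in the far tail, and S1pr1 (1), Myb (2) and Klf2 (3) among the bulk of genes.

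The genes with the most regions were ENSMUSG00000092329 with 366, Fgfr2 with 100, Foxp1 with 69 and Bach2 with 59, followed by Arfip1, ENSMUSG00000030068 and Wwox, tied at 50 each. Fgfr2 encodes a receptor of fibroblast growth factors that is best known outside the T cell lineage. A high count was thus also listed for a gene best known elsewhere. Of its regions 98 were intron and 2 promoter regions, and how many of them also overlap other genes was not examined.

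The regions of the 9 genes lay mostly in introns. The table labels a region P where it overlaps a promoter, E for an exon and I for an intron, and gives flanking genes up to 5000 bp away. Regions labelled P alone lay up to 3000 bp upstream of the nearest exon, and unlabelled upstream regions began at 3001 bp, so P reaches 3000 bp upstream. With a region of several labels counted once, in the order P, E, I, flanking, 12 of the 112 regions (10.7%) were promoter regions, 7 (6.2%) exon, 86 (76.8%) intron and 7 (6.2%) flanking regions. Over all 76685 pairs of a gene and a region the shares were 37.0% promoter, 7.2% exon, 34.2% intron and 21.7% flanking. Bach2 supplied 53 of the 86 intron regions, and without it the intron share was 62.3% and the promoter share 15.1%. With each of the 9 genes weighted equally the intron share was 46.1% and the promoter share 26.7%. The shares over all genes were not weighted in this way.

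**Figure D2:**
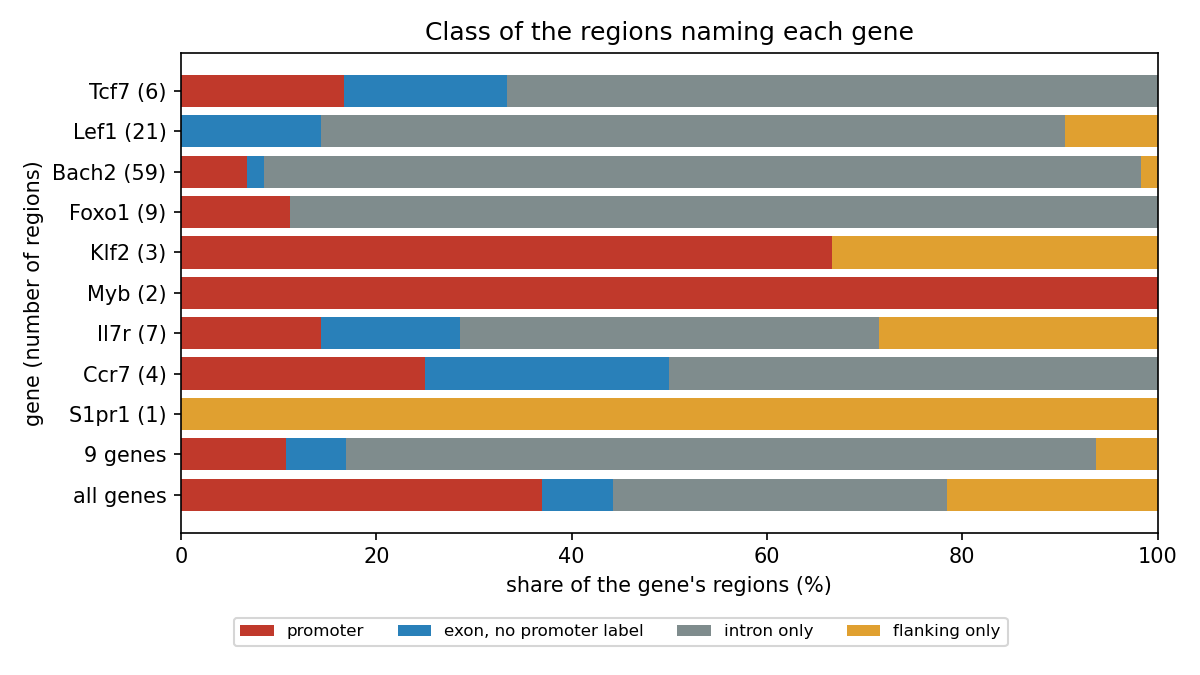
Class of the regions naming each gene as a share of its regions (%), with the number of regions in brackets, beside the 9 genes pooled (112 regions) and all genes (76685 pairs of gene and region). Intron regions fill most of the bars of Bach2, Foxo1, Lef1 and Tcf7, promoter regions those of Klf2 and Myb.

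A promoter region was listed for 7 of the 9 genes, the exceptions being Lef1 and S1pr1. The label follows the annotation used by the authors, and whether that holds all 4 RefSeq starts of Lef1 was not tested. A Lef1 region labelled intron alone (130947601 to 130947900) lay 2233 bp before a Lef1 exon. Of all named genes, 76.0% had a promoter region. Among the 911 genes with 10 or more regions only 52 (5.7%) had none, and Lef1 was among them. Among the 172 genes with 20 or more regions 11 had none.

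**Figure D3:**
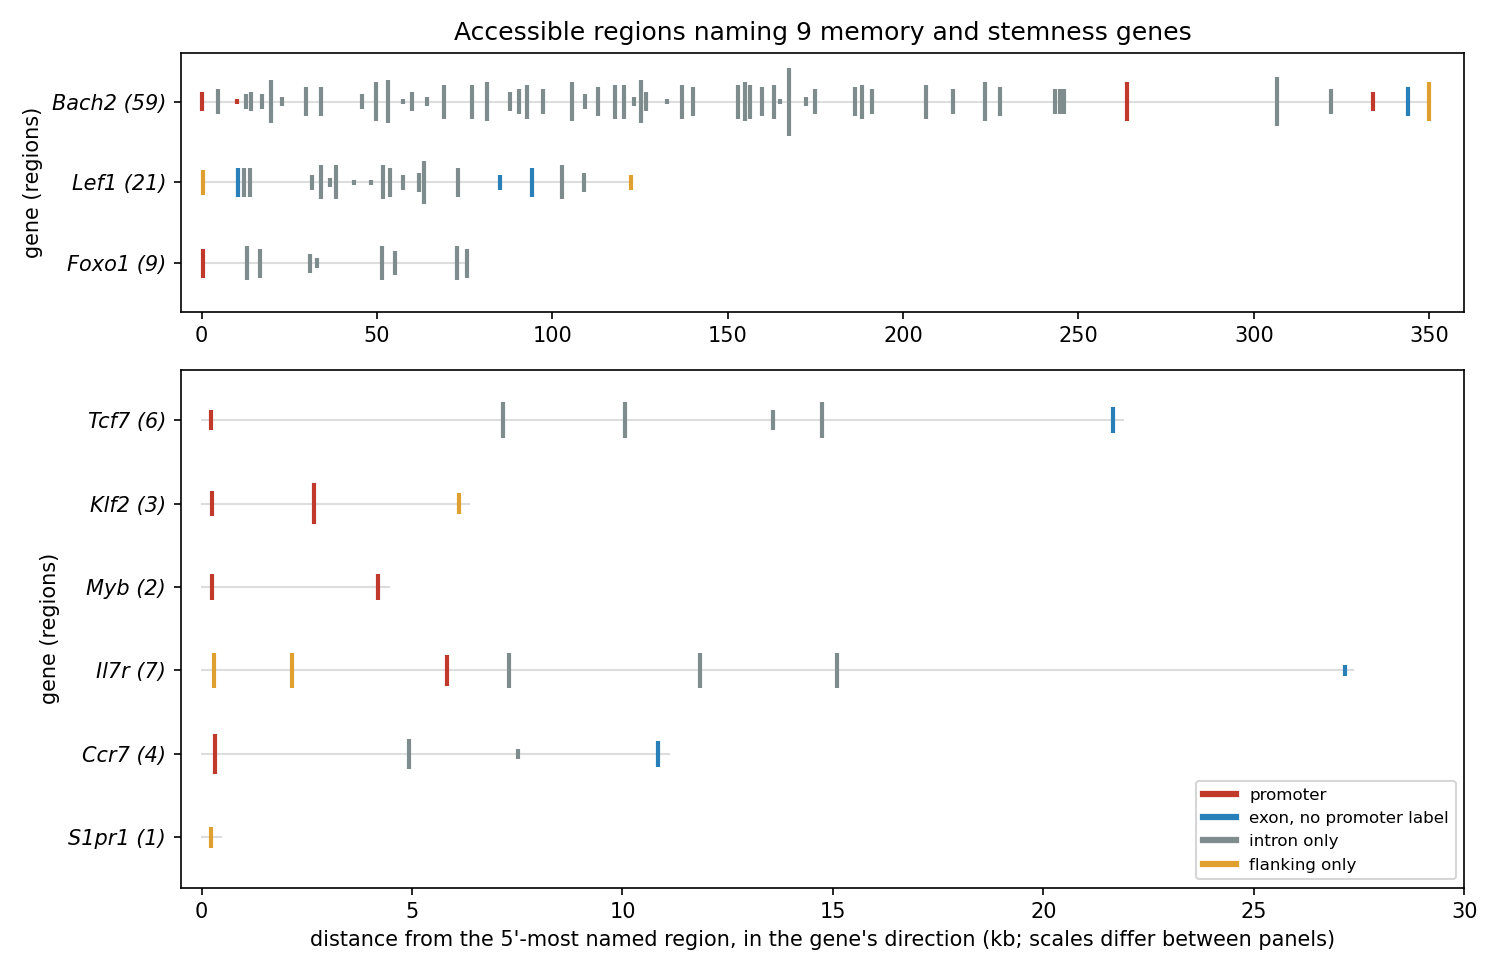
Regions along each gene, in its own direction, as distance in kb from the 5'-most region that names it, with bar height proportional to the number of merged windows and colour for the class. The panels have different scales. Bach2 regions span 350.3 kb, with promoter regions at the 5' end and again towards the 3' end, Lef1 has none in red, and Myb and Klf2 have promoter regions at their 5' ends.

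TCF-1, the product of Tcf7, is the factor most used to mark stem-like T cells. Its 6 regions spanned 21.9 kb of chromosome 11 (52144751 to 52166650, minus strand). The 5'-most was the single promoter region (52166201 to 52166650, 4 windows), labelled as promoter and intron. It lay 497 bp from the nearest Tcf7 exon on its lower-coordinate side and also overlapped the promoter of ENSMUSG00000086395 on the opposite strand. Of the 4 intron regions 3 had 7 windows, and the 3'-most region (52144751 to 52145250, 5 windows) overlapped an exon. Gaps between neighbouring Tcf7 regions had a median of 3000 bp and ran from 650 to 6400 bp. The set was compact, and no region further upstream named Tcf7. The intron label places the promoter region inside the gene, and no Tcf7 exon lay within 5 kb on its upstream side. The annotated gene thus reaches further upstream than these regions, and no region was listed at its outermost start.

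LEF-1 is the closest relative of TCF-1 and overlaps it in function. Its 21 regions spanned 122.6 kb of chromosome 3 (130899551 to 131022150, plus strand), with 16 in introns, 3 over exons and 1 flanking on either side. The upstream region (130899551 to 130900050, 5 windows) lay 4070 bp before the nearest Lef1 exon. The next region (130909651 to 130910200, 6 windows) overlapped an exon, and the 9600 bp between them held no region. This interval contains the first exon edge that the distance points to, so the start nearest to it had no listed region. The longest gap, 17200 bp, followed the third region within the gene. Past it, 12 regions followed between 130930751 and 130972800, 900 to 4600 bp apart except for a last gap of 8850 bp. The highest window number at Lef1 was 9 (130962701 to 130963400), and 2 of the 21 regions were single windows.

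BACH2 is a repressor of the BACH family that binds AP-1-like sites and restrains effector differentiation. Its 59 regions spanned 350.3 kb of chromosome 4 (32238451 to 32588750, plus strand), 58 of them overlapping the gene and 1 lying 1993 bp downstream. Of the 53 intron regions 46 had no Bach2 exon within 5 kb. For the 9 genes together 63 of 86 regions labelled intron alone (73.3%) were that far from an exon of the same gene, against 43.7% of 26188 over all genes. Bach2 supplied most of these, and without it the count was 17 of 33 (51.5%). The median gap between Bach2 regions was 3700 bp and that of Lef1 4350 bp, against 5700 bp (quartiles 3975 and 8437.5) over the 911 genes with 10 or more regions. Smaller median gaps than those of Bach2 were found in 19.4% of these genes.

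Bach2 had 4 promoter regions, a number reached by 1.77% of all genes, while genes with 20 or more regions had a median of 3. The 5'-most (32238451 to 32238900, 4 windows) overlapped promoter and exon. The second (32248301 to 32248600) was a single window, the third (32501851 to 32502500, 8 windows) overlapped promoter and exon, and the fourth (32572101 to 32572550, 4 windows) overlapped a promoter and an intron. The fourth also overlapped the promoter of Bach2os, a gene on the opposite strand. ATAC-seq has no strand, so such a region belongs to both genes alike. The longest gap in Bach2, 42300 bp, lay between the third promoter region and an intron region of 10 windows (32544801 to 32545550). The largest region at any of the 9 genes was a Bach2 intron region (32405501 to 32406450) of 14 windows and 950 bp, a window number reached by 65 of the 65983 regions (0.099%).

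FOXO1 is the forkhead factor that growth factor and antigen receptor signals drive out of the nucleus. Its 9 regions spanned 76.0 kb of chromosome 3 (52175451 to 52251400, plus strand). The promoter and exon region (52175451 to 52176000, 6 windows) also overlapped ENSMUSG00000092405, on the opposite strand. The other 8 were all intron regions of 2 to 7 windows, and 6 of them had no Foxo1 exon within 5 kb. Foxo1 regions were farther apart than those of Bach2 and Lef1, with a median gap of 7675 bp and a longest of 18100 bp.

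KLF2 is a zinc finger factor of quiescence and trafficking. Its 3 regions lay within 6.4 kb of chromosome 8 (73070151 to 73076500, plus strand). A promoter region of 5 windows (73070151 to 73070650) lay 2227 bp before the nearest exon. The second region (73072501 to 73073150, 8 windows) overlapped promoter and exon, and the third (73076051 to 73076500, 4 windows) lay 551 bp downstream. No region named Klf2 for an intron.

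MYB is a factor of progenitor self-renewal that also maintains stem-like memory cells. Both Myb regions (21032851 to 21033350 and 21036801 to 21037300 on chromosome 10, minus strand) carried the promoter label, had 5 windows and were 500 bp wide. The gap between them was 3450 bp, and no other region named Myb.

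The IL-7 receptor alpha chain, encoded by Il7r, transmits the survival signal of naive and memory T cells. Its 7 regions spanned 27.4 kb of chromosome 15 (9508401 to 9535750, minus strand). The promoter and exon region (9529651 to 9530200) had 6 windows. Upstream of it lay 2 regions of 7 windows, at 3039 bp (9533301 to 9533900) and 4889 bp (9535151 to 9535750) from the nearest Il7r exon. A conserved enhancer bound by FOXO1 is known a few kilobases upstream of mouse Il7r, and whether either region is that element was not tested. The 3 intron regions also had 7 windows each. The 3'-most region (9508401 to 9508750), over an exon, had 2. Il7r had the highest median window number of the 9 genes, 7, against 6 for all regions of the table.

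CCR7 guides naive and central memory T cells into lymph nodes. Its 4 regions lay in 11.1 kb of chromosome 11 (99035251 to 99046350, minus strand). The promoter and exon region at the 5' end (99045701 to 99046350) had 8 windows, as many as the larger Klf2 and Bach2 promoter regions. The intron regions had 6 and 2 windows, and the exon region at the 3' end (99035251 to 99035750) had 5.

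S1PR1 is the receptor for sphingosine 1-phosphate that lets T cells leave lymph nodes. A single region of 4 windows named S1pr1 (115502951 to 115503400 on chromosome 3). It lay 682 bp downstream of the gene, which is on the minus strand. No region overlapped the gene or its promoter, so S1pr1 was the only member with no overlapping region.

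Widths and window numbers set the members apart little. The 112 regions held 611 windows and covered 58950 bp, with a median of 6 windows (quartiles 4 and 7, range 1 to 14) and 550 bp (range 300 to 950). All regions had the same medians, 6 windows (quartiles 5 and 8) and 550 bp. Regions of 10 or more windows made up 1.79% of the members' regions (2 of 112, both at Bach2) and 5.97% of all regions. Single windows made up 5.36% (6 of 112, at Bach2 and Lef1) and 3.81%. The 12 promoter regions had a median of 5 windows (quartiles 4 and 6.5), while the 28361 promoter pairs of all genes had 7 (quartiles 6 and 8). The intron regions had 6 windows in both sets. No test was made of these differences, since regions of the same gene are not replicates.

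**Figure D4:**
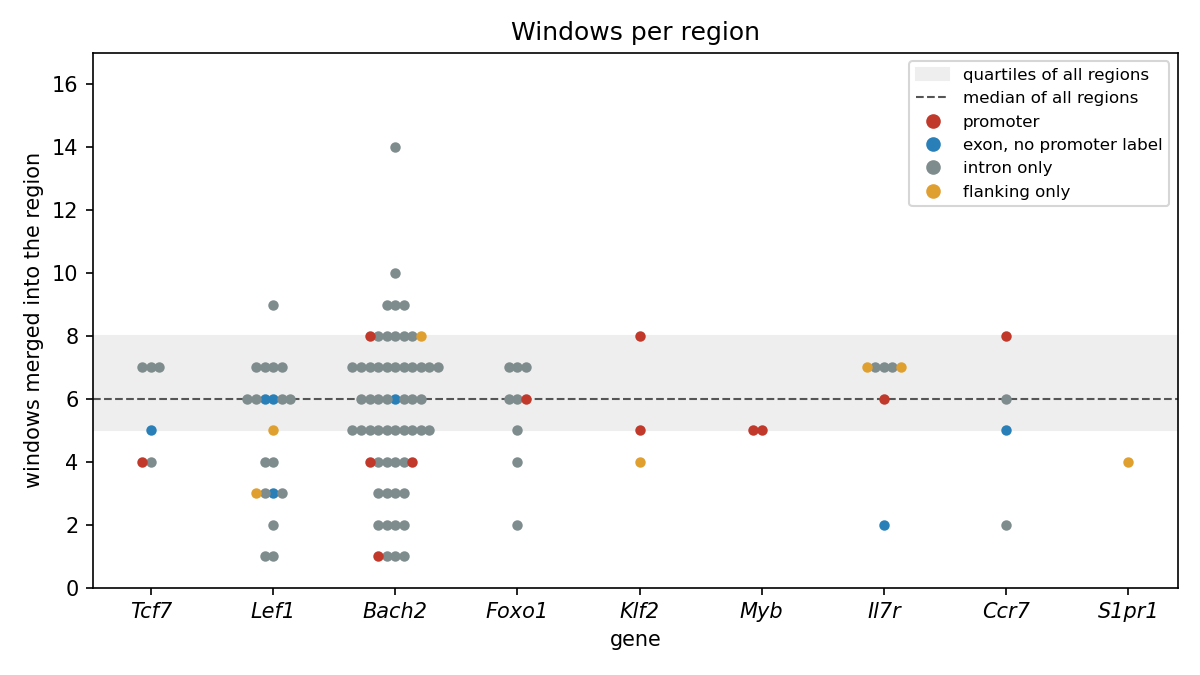
Number of windows merged into each region (y axis) for the 9 genes (x axis), 1 point per region, coloured by class, with the median (6, dashed) and quartiles (5 to 8, grey) of all 65983 regions. The 14-window and 10-window regions of Bach2 stand above the rest, and the promoter points reach at most 8 windows.

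Motif letters were counted in the 300-base promoters of RefSeq, from 250 bases before to 50 bases after a start, since no genome of the build of the regions was used. There were 11 promoters for 7 of the 9 genes. The motifs, searched on both strands, were CAGCTG and CAGGTG (E-boxes bound by E proteins), CTTTGA (TCF/LEF), TGTTTAC (forkhead), TGTGGT (RUNX), TGANTCA (AP-1), TTCNNNGAA (STAT), GGGCGGG (SP/KLF), CCGGAA (ETS) and AACGG (MYB). None of these motifs contains another, but matches can share bases, as a pair of GGGCGGG matches does in the Myb line.

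An E-box of either kind stood in 4 of the 11 promoters (36.4%), those of Tcf7 and Lef1, against 32.9% of all 32851 promoters. Over the 250 bases before each start alone the share was 18.2%, against 27.7% of all promoters, and with the first start of each of the 7 genes it was 14.3%. CTTTGA stood in 2 (Lef1 and Bach2) and CCGGAA in 2 (Tcf7 and Bach2), or 18.2% each against 16% and 14.9%. GGGCGGG stood in 8 of 11 (72.7%), from Tcf7, Lef1, Foxo1, Klf2 and Myb, against 25.6% of all. The first and second Lef1 starts are so close that they share this match. The upstream bases of 7 of the 11 promoters held more G and C than the median of all promoters, and the part of this in the result was not tested. TGTTTAC stood in 2 of 11 (18.2%), the Myb promoter and a Tcf7 start, against 3.6% of all promoters. Both matches began within the 50 bases after the start, outside the printed Myb line, and over the 250 bases before the start the shares were 0 and 3.2%. TTCNNNGAA stood in 2 (18.2%, Bach2 and Il7r) against 8.3% of all promoters, and AACGG in 3 (27.3%, Bach2, Foxo1 and Il7r) against 17.4%. TGTGGT stood in Il7r alone (9.1%) against 16.8%. TGANTCA stood in none of the 11, against 7.8% of all promoters. A match is a description of the letters and does not show binding.

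The 29 other genes listed for comparison were related to T cell memory, quiescence or effector differentiation. All were named by a region, and 28 had a promoter region. The exception was Ikzf1, the gene of the lymphoid factor Ikaros, with 18 regions, all in introns. Lef1 was thus not the only gene among the members and this list with many regions and no promoter region. Their median was 5 regions, against 6 for the 9 genes. Regions numbered 10 or more at 9 of the 29 and at 2 of the 9, against 3.40% of all genes. The highest counts were those of Foxp1 (69), Bcl2 (33) and Ets1 (27), a forkhead factor, a survival protein and an ETS factor of T cells. Eomes and Ly6c1 had the lowest, 2 each. Id3 itself had 3 regions, of which 2 were promoter regions. S1pr4, a relative of S1pr1, had 4 regions and 2 promoter regions where S1pr1 had none.

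The label of the cells as T cells was checked against marker genes. Of 13 T cell markers 12 had a promoter region, with a median of 6 regions, the exception being Trac, which no region named. Of 27 markers of B, myeloid, erythroid, liver and nerve cells 15 had a promoter region and 8 were named by no region, with a median of 1. The share with a promoter region over all named genes was 76.0%, which leaves out genes that no region names. Single genes of other lineages nevertheless had counts like those of members, such as Ebf1 of B cells with 10 and Rbfox3 of neurons with 9, as many as Foxo1. A number of regions does not by itself mark a gene that is used in these cells.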

How the data were processed

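The data were ATAC-seq results on 18 samples of mouse CD4 T cells in 6 groups of 3. The single deposited table holds 395898 rows, 65983 regions in each of 6 contrasts, and no value per sample. The submitters' processing notes name Trim Galore, BWA, Picard, edgeR and the build GRCm39. The filtering and merging of windows and the annotation behind the labels are not given in the sources used. Per the file headers the authors deposited a p-value for each region and contrast, used here only to check the order of the table. The window number and the width in bp are counts and lengths with no normalization. The members and gene lists were chosen with earlier results of these data known. Gene names were split from the overlap, left and right columns (Python 3.11.15, pandas 2.3.3, numpy 2.4.6), and the splitting was tested on simulated data. Named genes were all 9 members, a list of 29 related genes (a further gene of that list is not reported here), the 5 genes with the most regions (with all 3 tied in last place) and genes sharing a region with a member. Promoters came from RefSeq (GRCm38.p6), and 9 of 9 members matched its symbols, with promoters for 7. No test of accessibility was made, because statistics do not belong to their rows. Alternatives were a minimum of 2 or 5 windows, overlap only, other weights and other stretches for motifs.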

Additional observations from a re-analysis of the deposited data

How the results depend on the processing

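No paired analysis was possible because no per-sample values are in the table used here, and leaving out a replicate was not run for the same reason. Regions per 10 kb of gene, and motif settings on regions, were not run, as no genome or annotation of the build was used. Of the 112 regions, 105 overlapped their gene, 106 had at least 2 windows and 77 at least 5. With at least 5 windows Lef1 had 12 regions and S1pr1 none. All 5 other contrasts gave 112 regions.

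The shares of classes depended on Bach2. The promoter share of 10.7% became 26.7% with the 9 genes weighted equally and 15.1% without Bach2. The intron share of 76.8% became 46.1% with equal weights and 62.3% without Bach2. The share of intron regions far from an exon, 73.3%, became 51.5% without Bach2. Settings without Bach2 and for stretches of promoters were chosen after seeing the data. With the 250 bases before each start alone, an E-box stood in 18.2% of the members' promoters, and with the first start of each gene in 14.3%. With the 250 bases alone, the forkhead, RUNX and CAGGTG matches, which lay past the start, were lost. Against 21900 protein coding genes, with unlisted genes at 0, S1pr1 was reached by 70.9% of genes and Myb by 53.1%. With overlapping regions alone, Klf2 and Myb were each reached by 44.3% of genes, Ccr7 by 15.6%, Il7r by 10.7% and Tcf7 by 7.84%. Il7r thus came after Tcf7, the reverse of the order with all regions. Bach2, Lef1 and Foxo1 kept their order, at 0.015%, 0.706% and 3.7%.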

Other observations

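Regions that name no gene made up 105 of the 200 regions (52.5%) within 100 kb of the outermost regions of a member. The share was 16% over the surroundings of all named genes counted the same way, and 18.8% over all 65983 regions of the table. The members differed widely, from 2 of 25 at Myb to 24 of 24 at S1pr1. Measured from the only region that names S1pr1, the nearest other region lay 4300 bp away on the downstream side. On the upstream side it lay 19400 bp away, a stretch that includes S1pr1 itself. The locus that had the fewest named regions was thus surrounded by more regions than 94.1% of named genes had, the median being 11 (quartiles 6 and 16).

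Tcf7 had 27 regions in its surroundings, more than 97.3% of genes, with 20 upstream and 7 downstream. Of the 20 upstream regions 18 name no gene, and the nearest lay 18150 bp beyond the promoter region. That promoter region also carries an intron label, so part of this distance lies within Tcf7 itself. Ccr7 had 26, of which 19 name no gene, and Klf2 27, of which 8 do. Myb had 25 regions, 23 of which name other genes, and Il7r had 24, of which 7 name no gene. Lef1, Foxo1 and Bach2 had 16, 17 and 14, closer to the median, of which 5, 10 and 8 name no gene. The genes with the most regions of their own were therefore not those with the most around them. Which gene such regions act on, if any, was not tested, and the 100 kb limit was chosen after the data were seen.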
